A study of Mus musculus with 6 samples.

Results

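Bex1, Bex2 and Bex4 of the brain-expressed X-linked (Bex) family and Armcx1, Armcx2, Armcx3, Armcx4 and Armcx6 of the armadillo repeat-containing X-linked (Armcx) family were examined in RANK-/- and RANK+/+ mammary tumor cells. The 8 genes were chosen by their log2 ratios of RANK-/- over RANK+/+ on these same arrays, so their ratios are given as a description with no test. They were read by the 12 gene probes whose accession maps to their symbols, 11 of which passed the filter on dim probes, and all 8 were among the 22504 genes tested. RNA came from CD45- cells sorted from enzymatically dissociated tumors, a sort that removes most leukocytes and keeps tumor cells along with stromal cells. MMTV-PyMT late carcinoma cells had been transplanted orthotopically, either RANK+/+ or RANK-/-, and grown in C57BL/6 hosts of the same strain, with no drug treatment named for these samples. In both genotypes the polyomavirus middle T oncogene is driven by the mouse mammary tumor virus promoter, RANK-/- cells came from mice without functional RANK, the NF-kB activating receptor that Tnfrsf11a encodes, and the labels give no animal age. There were 3 pairs of RNAs with 1 RNA of each genotype, and 2 technical arrays per pair (A and B), with one genotype in Cy5 (red) and the other in Cy3 (green).

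The Bex genes encode small proteins, abundant in neurons, that act as adaptors in signaling and transcription complexes, including that of the p75 neurotrophin receptor Ngfr. The Armcx proteins, also called Alex for arm protein lost in epithelial cancers, carry armadillo-like repeats, and several sit on the outer mitochondrial membrane, where they join the Miro (Rhot) and Trak machinery that carries mitochondria along microtubules. Both families belong to one X-linked cluster of placental mammals that also holds the Tceal genes, named for their likeness to transcription elongation factor A, and the Gprasp genes, which sort G protein-coupled receptors to lysosomes.

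Promoter sequences are shown first for the Bex genes, because Bex1 with Bex4, and Bex2 with Bex3, have much promoter sequence in common. Bex1 and Bex4 had like values across the RNAs. Bex2 and Bex3 differed in range, 1.80 against 0.38 log2 units over the 6 RNAs, and no distance between them was computed. Windows of 250 bases before and 50 bases after the annotated start were taken from RefSeq (build GRCm38.p6). A window was held for 7 of the 8 members. The exception was Armcx3. The 250 bases before each start are printed 5′ to 3′ on the strand of the gene. In Bex1 and Bex4 capitals mark the letters CACGTG, a palindrome known as the E-box, and in Bex1 the start falls inside it, so that only its first letters are printed. In Bex2 and in its relative Bex3 capitals mark the part before the start of the longest run that both windows share.
Bex1, chrX:136215514-136215763, minus strand: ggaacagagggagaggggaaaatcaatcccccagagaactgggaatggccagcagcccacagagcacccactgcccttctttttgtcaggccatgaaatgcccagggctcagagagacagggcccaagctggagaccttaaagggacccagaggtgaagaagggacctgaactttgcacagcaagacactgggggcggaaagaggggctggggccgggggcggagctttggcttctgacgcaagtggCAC
Bex4, chrX:136138746-136138995, plus strand: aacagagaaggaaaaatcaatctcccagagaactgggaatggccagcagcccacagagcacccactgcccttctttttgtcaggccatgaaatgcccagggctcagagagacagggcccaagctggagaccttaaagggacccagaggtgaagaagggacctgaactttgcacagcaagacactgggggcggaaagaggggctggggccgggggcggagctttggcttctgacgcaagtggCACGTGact
Bex2, chrX:136068237-136068486, minus strand: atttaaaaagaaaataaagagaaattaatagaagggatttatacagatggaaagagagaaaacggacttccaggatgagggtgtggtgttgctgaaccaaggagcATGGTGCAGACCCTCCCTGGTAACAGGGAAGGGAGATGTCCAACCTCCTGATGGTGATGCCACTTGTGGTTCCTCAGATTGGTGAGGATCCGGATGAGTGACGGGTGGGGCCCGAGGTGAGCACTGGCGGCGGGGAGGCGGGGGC
Bex3, chrX:136270003-136270252, plus strand: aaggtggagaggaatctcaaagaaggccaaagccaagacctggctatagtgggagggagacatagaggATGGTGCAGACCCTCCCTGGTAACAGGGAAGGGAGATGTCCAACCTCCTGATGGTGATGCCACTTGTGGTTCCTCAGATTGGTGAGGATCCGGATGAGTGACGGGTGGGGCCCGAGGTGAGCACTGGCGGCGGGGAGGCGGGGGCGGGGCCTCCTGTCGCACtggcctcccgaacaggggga
The windows of Bex1 and Bex4, which lie on opposite strands, were 95.1% identical in a global alignment and shared an unbroken run of 271 bases. Those of Bex2 and Bex3 were 71.3% identical and shared a run of 162 bases. Bex1 and Bex2 were 51.1% identical with a longest shared run of 9 bases, close to the median identity of 49.2% over all 210 pairs of windows in the Bex, Tceal, Armcx and Gprasp families.

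Among the Armcx members the last 100 bases before the start are printed to show where CACGTG, again in capitals, lies against the start.
Armcx1, chrX:134717838-134717937, plus strand: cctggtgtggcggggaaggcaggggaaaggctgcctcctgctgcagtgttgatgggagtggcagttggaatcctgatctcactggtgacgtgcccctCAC
Armcx4, chrX:134686419-134686518, plus strand: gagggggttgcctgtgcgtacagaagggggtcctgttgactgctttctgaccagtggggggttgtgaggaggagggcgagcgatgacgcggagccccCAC
Armcx6, chrX:134751420-134751519, minus strand: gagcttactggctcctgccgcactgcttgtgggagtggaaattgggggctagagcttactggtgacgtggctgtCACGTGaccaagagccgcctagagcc
Armcx2, chrX:134809222-134809321, minus strand: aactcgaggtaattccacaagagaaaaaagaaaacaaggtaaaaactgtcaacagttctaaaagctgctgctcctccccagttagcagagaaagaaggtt
CACGTG reads the same on both strands. Counted back from the start, its first base lay at position -3 in Bex1, Armcx1 and Armcx4, at -9 in Bex4 and at -26 in Armcx6. The windows of Bex2 and Armcx2 did not hold it. It was found in 5 of 7 members and in 7 of 14 relatives, against 8.09% of the 27025 genes with a window. The longer form TCACGTG, searched on both strands and overlapping the first, was found in the same 5 members and in 4.29% of all genes. These matches describe the letters of the windows and were not read as binding sites.

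Before any comparison the targeted gene was checked. The level of a gene in an RNA is given here as the log2 intensity of its channel after background correction and normalization, averaged over arrays A and B, and it is open to dye bias. Tnfrsf11a stood at 13.55, 13.36 and 13.07 in the channels labeled RANK-/- of pairs 1, 2 and 3, and at 11.52, 12.21 and 11.32 in the channels labeled RANK+/+. Its log2 ratio was 1.65 ± 0.45 (SD, n = 3 pairs; limma adjusted p = 1.00), which goes against the labels, and the position of its probe relative to the deleted part of the gene was not given in the sources used here. Every direction below is therefore that of the library labeled RANK-/- against the library labeled RANK+/+. Pair 1 had the RANK-/- RNA in Cy5, and pairs 2 and 3 had the RANK+/+ RNA in Cy5. Log2 ratios of arrays A and B correlated across genes at r = 0.973 to 0.983, whereas those of different pairs correlated at -0.279 to 0.178. Per array and genotype, signal was well above background for 28926 to 32756 gene probes (51.9% to 58.8%). With limma on the 3 pair ratios and Benjamini-Hochberg adjustment, 0 of 22504 genes (0%) passed an adjusted p of 0.05, and 646 had an unadjusted p under 0.05.

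All 8 members had a mean log2 ratio below 0, as did 11021 of 22502 genes overall. The median of the members was -0.85, beside 0.00 over all genes tested, and it was -0.96 in pair 1, -0.11 in pair 2 and -1.22 in pair 3. In all, 5 of 8 members (Bex2, Armcx1, Armcx2, Armcx3 and Armcx6) were lower in RANK-/- in every pair, which 9.65% of all genes were. Because the ratios chose the members, nothing is read from the difference between such shares. Members at least 2-fold lower numbered 4 in pair 1 (2.84% of all genes), 2 in pair 2 (2.37%) and 5 in pair 3 (3.01%). Bex1, Bex2, Bex4 and Armcx2 were at least 2-fold lower in both pair 1 and pair 3, as were 0.449% of all genes, and Armcx2 alone of the members was so in all 3 pairs, as were 0.0489%. In bulk RNA, fewer cells that express a gene and less of its RNA per cell cannot be told apart.

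**Figure D1:**
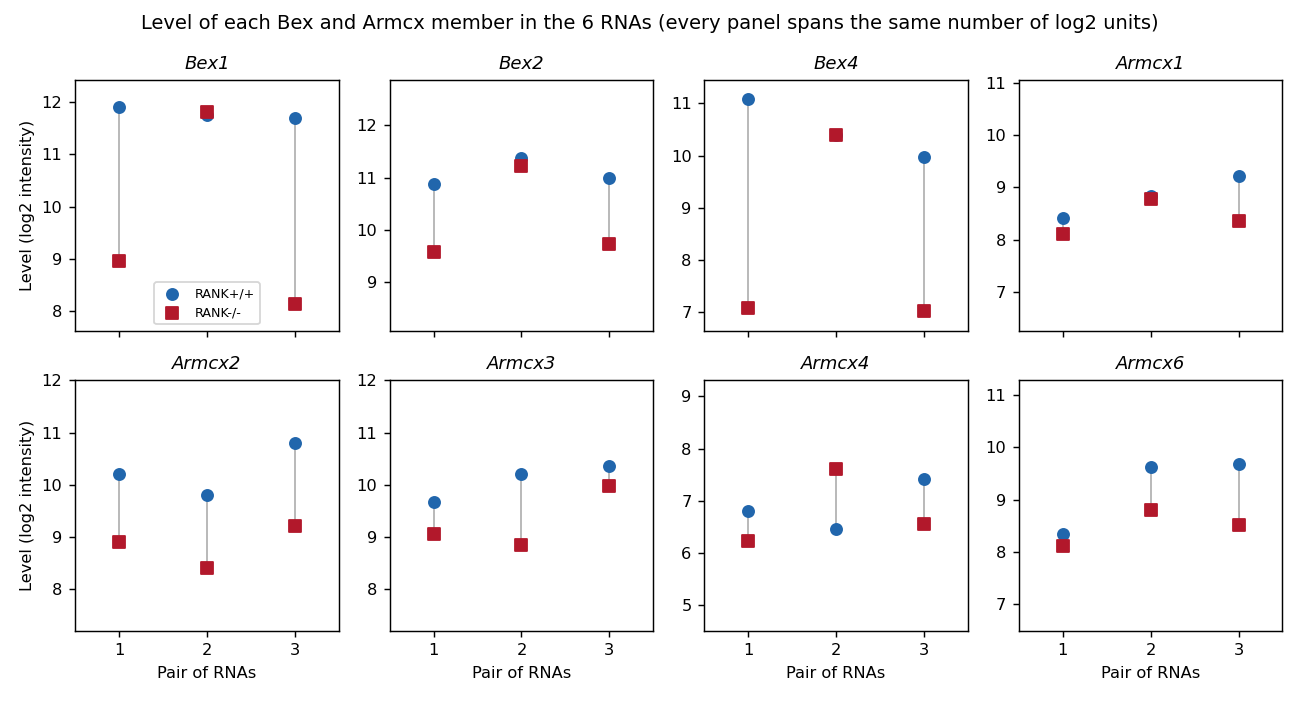
Level of each member in the 6 RNAs, as log2 intensity averaged over arrays A and B (vertical axis), by pair of RNAs (horizontal axis). Blue circles are RANK+/+ and red squares RANK-/-, joined by a gray line within a pair. Bex1, Bex2 and Bex4 are far apart in pairs 1 and 3 and nearly coincide in pair 2, while the Armcx2 squares (8.42 to 9.21) lie under all of its circles (9.81 to 10.80).

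Bex1 encodes a neuronal adaptor that binds the intracellular part of Ngfr. Its level was 8.96, 11.81 and 8.14 in the RANK-/- RNAs of pairs 1, 2 and 3, and 11.91, 11.76 and 11.69 in the RANK+/+ RNAs. The RANK+/+ RNAs lay close together (SD 0.11, against 1.93 in RANK-/-), 2 of the RANK-/- RNAs were far below them, and the RANK-/- RNA of pair 2 lay within their range, so the genotypes overlapped. The log2 ratios were -2.96, 0.05 and -3.55, a mean of -2.15 ± 1.93 (SD, n = 3). Bex1 was thus 7.77-fold and 11.7-fold lower in RANK-/- in pairs 1 and 3, where it ranked 18th and 3rd lowest of all genes, and 13111th lowest in pair 2. The median spot signals as scanned were 528 and 521 in the RANK-/- channel of arrays 1A and 1B against 3236 and 3066 in the RANK+/+ channel. On arrays 2A and 2B they were 3115 and 2898 against 4084 and 4237, and on 3A and 3B they were 199 and 197 against 4472 and 5079. The low RANK-/- signal was thus seen in Cy5 in pair 1 and in Cy3 in pair 3. A second Bex1 probe gave log2 ratios of -2.26, 0.23 and -2.59, the same order of pairs with smaller sizes. Without pair 2 the mean for Bex1 was -3.25, and without pair 3 it was -1.45.

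Bex4 had the lowest mean ratio of the members. Its level was 7.09, 10.40 and 7.02 in the RANK-/- RNAs and 11.08, 10.39 and 9.98 in the RANK+/+ RNAs. Here too the RANK-/- RNAs of pairs 1 and 3 were far below every RANK+/+ RNA, and that of pair 2 lay among them. The log2 ratios were -3.99, 0.01 and -2.96 (mean -2.31 ± 2.08, SD, n = 3), that is 15.9-fold lower in pair 1 and 7.79-fold lower in pair 3. Bex4 ranked 5th lowest of all genes in pair 1, 9th in pair 3 and 11954th in pair 2. Its median spot signals in the RANK-/- channel were 142 and 143 in pair 1 and 77 and 89 in pair 3, and its probe was nevertheless well above background on all 6 arrays in both genotypes. The mean was -3.48 without pair 2 and -1.48 without pair 1. With an offset of 0 in the background correction it was -2.76, so the size of its ratios depended on the processing. Bex1 and Bex4, whose promoter windows are printed above as a nearly identical pair, followed one another closely across the 6 RNAs. Probe sequences were not analysed here, so whether a probe for one can also bind the RNA of the other could not be checked.

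Bex2 is a regulator of transcription complexes that contain the factor Lmo2. It stood at 9.57, 11.22 and 9.72 in RANK-/- and at 10.88, 11.37 and 10.99 in RANK+/+, with the low values again in the RANK-/- RNAs of pairs 1 and 3. The RANK-/- RNA of pair 2 was above 2 of the 3 RANK+/+ RNAs. Its log2 ratios of -1.31, -0.15 and -1.27 (mean -0.91 ± 0.66, SD, n = 3) were, as for Bex1 and Bex4, highest in pair 2, and their sizes in pairs 1 and 3 were smaller. Bex2 was 2.48-fold and 2.41-fold lower in those pairs. The 3 Bex members therefore shared a low level in the RANK-/- RNAs of pairs 1 and 3 but not of pair 2. A ratio highest in pair 2 was not particular to them. Armcx1 (-0.31, -0.07 and -0.85) and Armcx4 (-0.58, 1.13 and -0.87) had it too.

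Armcx2 had the pattern that varied least. Its level was 8.90, 8.42 and 9.21 in the RANK-/- RNAs and 10.21, 9.81 and 10.80 in the RANK+/+ RNAs, and every RANK-/- RNA was below every RANK+/+ RNA. It was the only member whose genotypes did not overlap, as 3.82% of all genes did not with RANK-/- lower. The log2 ratios were -1.32, -1.38 and -1.59 (mean -1.43 ± 0.14, SD, n = 3), or 2.49-fold, 2.60-fold and 3.01-fold lower. It ranked 349th, 242nd and 147th lowest in the 3 pairs. The ratio had the same sign and a like size with the RANK-/- RNA in Cy5 (pair 1) and in Cy3 (pairs 2 and 3).

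Armcx3 is the family member best known for its place on the outer mitochondrial membrane, where it joins Miro and Trak2, and it also interacts with the transcription factor Sox10. It stood at 9.07, 8.85 and 9.97 in RANK-/- and at 9.68, 10.21 and 10.37 in RANK+/+. RANK-/- was the lower RNA in each pair, and the genotypes overlapped through the RANK-/- RNA of pair 3. The log2 ratios were -0.60, -1.36 and -0.40 (mean -0.79 ± 0.51, SD, n = 3), so pair 2, where the Bex ratios were near 0, held the lowest ratio. The second Armcx3 probe read 0.46, -1.34 and -0.75, and the probes thus disagreed in sign in pair 1.

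Armcx6 stood at 8.11, 8.81 and 8.52 in RANK-/- and at 8.35, 9.63 and 9.68 in RANK+/+. Only the RANK+/+ RNA of pair 1 fell among the RANK-/- values. Its log2 ratios were -0.24, -0.82 and -1.16 (mean -0.74 ± 0.47, SD, n = 3). A dimmer second probe, above background in the RANK-/- channel of only 2 of 6 arrays, read -0.09, -0.26 and -0.75. Armcx1, whose product promotes mitochondrial transport and axon growth in neurons, stood at 8.11, 8.77 and 8.36 in RANK-/- and at 8.42, 8.84 and 9.21 in RANK+/+. Its genotypes overlapped widely, with log2 ratios of -0.31, -0.07 and -0.85 (mean -0.41 ± 0.40, SD, n = 3).

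Armcx4 had no common direction. Its level was 6.23, 7.60 and 6.55 in RANK-/- and 6.81, 6.47 and 7.42 in RANK+/+, and the RANK-/- RNA of pair 2 was the highest of the 6. The log2 ratios were -0.58, 1.13 and -0.87 (mean -0.11 ± 1.08, SD, n = 3), and the mean was 0.13 without pair 1 and 0.28 without pair 3. Its probe was above background in the RANK-/- channel of 5 of 6 arrays. A second probe, above background on 1 of 6 arrays in RANK+/+ and 0 in RANK-/-, was not kept. For the 8 members the largest difference between the ratios of arrays A and B of a pair was 0.11 to 0.21, against an SD between pairs of 0.14 for Armcx2 (its largest A to B difference was 0.16) and of 0.40 to 2.08 for the others.

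**Figure D2:**
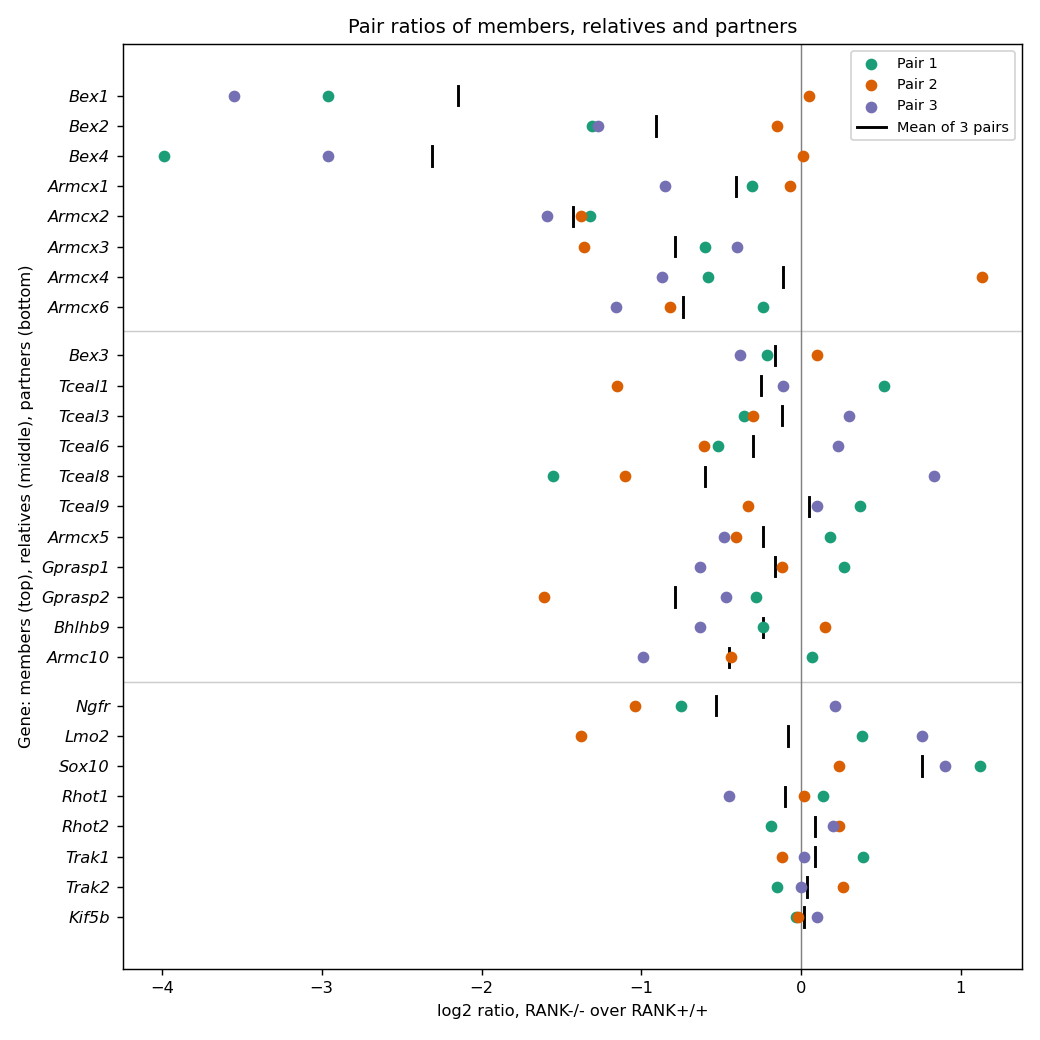
Log2 ratio of RANK-/- over RANK+/+ (horizontal axis) in pair 1 (green), pair 2 (orange) and pair 3 (purple) for members, relatives and known partners (rows), with the mean of 3 pairs as a black bar. The Bex1 and Bex4 points of pairs 1 and 3 lie between -3.99 and -2.96 while those of pair 2 lie at 0.05 and 0.01, the Armcx2 points lie between -1.59 and -1.32, and the Rhot, Trak and Kif5b points lie between -0.45 and 0.39.

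Relatives of the members were then counted, all on the X chromosome except Bex6 and Armc10. Of 9 other Bex and Tceal genes 6 were tested and 0 passed in either direction (limma, adjusted p of 1.00 for each). Bex6, Tceal5 and Tceal7 were not well above background. The median of the 6 mean log2 ratios was -0.20. Bex3, which shares much of its promoter window with Bex2 and whose product also binds Ngfr, had log2 ratios of -0.21, 0.10 and -0.38. They were highest in pair 2, as for Bex2. The levels of Bex3 were 11.88, 12.07 and 11.81 in RANK-/- and 12.09, 11.97 and 12.19 in RANK+/+, a range of 0.38 over the 6 RNAs against 1.80 for Bex2, and the genotypes overlapped. Tceal8, which lies between Bex4 and Bex1 in gene order, had log2 ratios of -1.55, -1.10 and 0.83 and thus a different order of pairs from both neighbors.

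All 5 other Armcx and Gprasp genes were tested and 0 passed. Their median of mean log2 ratios was -0.24 and all 5 means were below 0, as were those of 11021 of 22502 genes overall. Gprasp2 had the same sign in all 3 pairs, with log2 ratios of -0.28, -1.61 and -0.47 (mean -0.79 ± 0.72, SD, n = 3; limma unadjusted p = 0.0612, adjusted p = 1.00). Its levels were 8.52, 8.58 and 7.71 in RANK-/- and 8.80, 10.19 and 8.18 in RANK+/+, with the RANK+/+ RNA of pair 2 apart from the rest and the genotypes overlapping. Armc10, the autosomal gene most like the Armcx genes, had log2 ratios of 0.07, -0.44 and -0.99, and Armcx5 had 0.18, -0.41 and -0.48.

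The 8 known partners of the Bex and Armcx proteins were all tested and 0 passed, with a median mean log2 ratio of 0.03. Sox10, a neural crest factor also made in mammary epithelium that interacts with Armcx3, was the only partner of one sign in all pairs. It was higher in RANK-/- in each, as were 2235 of 22502 genes. Its levels were 14.33, 13.54 and 14.37 in RANK-/- and 13.21, 13.29 and 13.47 in RANK+/+. Every RANK-/- RNA of Sox10 was above every RANK+/+ RNA. The share of all genes separated in this direction was not counted, so nothing is read from that separation. Its log2 ratios were 1.12, 0.24 and 0.90 (mean 0.76 ± 0.46, SD, n = 3; limma unadjusted p = 0.025, adjusted p = 1.00). Ngfr read -0.75, -1.04 and 0.21, and Lmo2 read 0.38, -1.38 and 0.76, so neither shared the pattern by pair of the Bex genes. The carriers of mitochondria Rhot1, Rhot2, Trak1, Trak2 and Kif5b had mean log2 ratios of -0.10, 0.09, 0.09, 0.04 and 0.02.

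On the X chromosome the members lay in 2 groups. RefSeq order runs Armcx4, Armcx1, Armcx6, Armcx3 and Armcx2 at one end of the cluster, and Bex2, Bex4 and Bex1 toward the other. Between the outermost genes of the families 90 genes are annotated. Of the 82 that are not members 15 were tested, most of them relatives already counted above. Of the 15, 12 had a mean log2 ratio below 0, as did 11021 of 22502 genes overall. In all 3 pairs 1 of them (Gprasp2) was lower and 0 were higher. The median of the 15 was -0.24. The neighbors outside the families, Nxf2, Zmat1, Nxf7, Arxes2 and Arxes1, had means of 0.07, -0.02, 0.08, -0.31 and -0.24. Over the 491 tested X genes outside the members the median was -0.05, with 64 lower and 26 higher in every pair, and over all genes tested 2171 were lower and 2235 higher. Arxes2 and Arxes1, which follow one another between the Gprasp genes and Bex2, had log2 ratios of -0.57, 0.60 and -0.95 and of -0.65, 0.78 and -0.84, with the highest ratio in pair 2 as for the Bex members. Both were singled out after their values were seen.

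**Figure D3:**
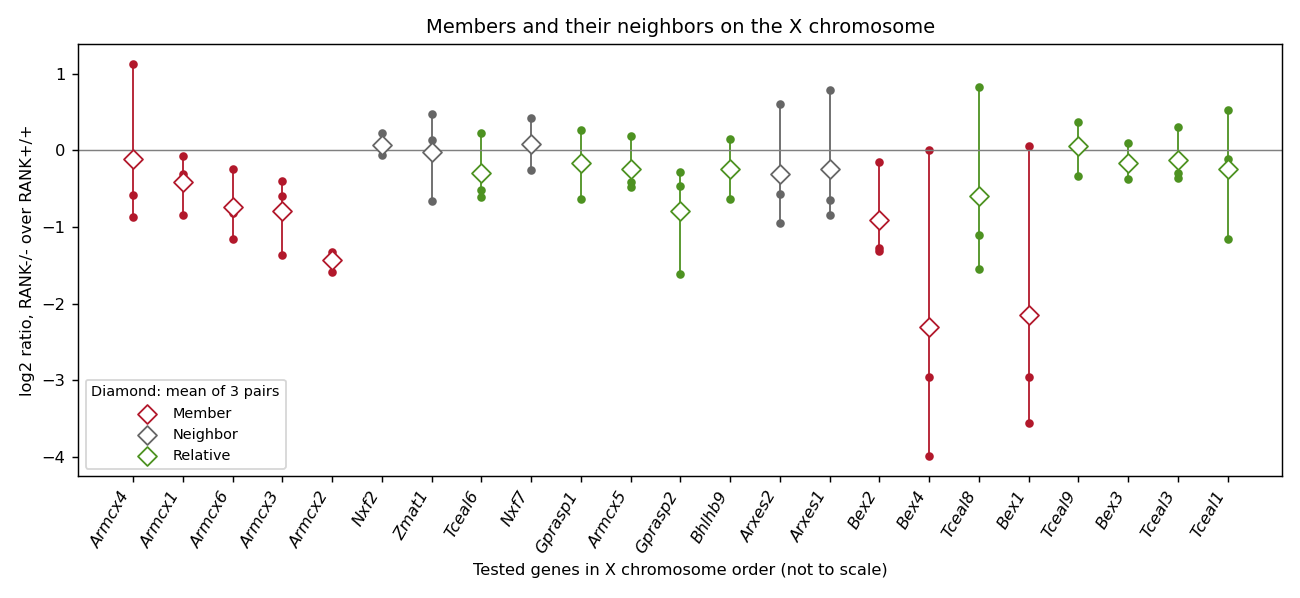
Log2 ratio of RANK-/- over RANK+/+ (vertical axis) of the tested genes of the X-linked cluster in chromosome order, with 1 dot for each of the 3 pairs, a line over their range and a diamond for the mean. Members are red, other genes of the families green and the remaining neighbors gray. Bex4 and Bex1 reach -3.99 and -3.55, Tceal8 between them has a mean of -0.60, and Nxf2, next to Armcx2, has a mean of 0.07.

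Likeness of pattern was measured as the root mean square difference between the log2 levels of 2 genes over the 6 RNAs, each centered on its own mean. For Bex1 and Bex4 it was 0.35, and only 1 of 22501 other transcripts, a probe without a gene name, was nearer to either of them. The median distance of all genes from Bex4 was 1.66. Bex2 ranked 11th nearest to Bex1, at 0.90, and 10th nearest to Bex4, at 1.00. Ranks depend on the gene they are counted from. Counted from Bex2, Bex1 ranked only 19008th nearest and Bex4 20679th. Every Armcx member was nearer to Bex2 than these, from Armcx1 (0.49, 305th nearest) and Armcx6 (0.52, 514th) to Armcx2 (0.88, 18411th). Among the Armcx members Armcx3 was 51st nearest to Armcx2, at 0.47, and Armcx1 was 53rd nearest to Armcx6, at 0.30. Counted the other way, Armcx2 was 1373rd nearest to Armcx3 and Armcx6 was 3225th nearest to Armcx1. Armcx2 was at 0.88 from Bex2, 1.42 from Bex1 and 1.49 from Bex4, and it ranked 2584th nearest to Bex1 and 2101st nearest to Bex4. The median distance of all genes from Armcx2 was 0.83. These distances describe 6 RNAs that share hybridizations, and they carry no test.

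Outside the families, the 5 named genes nearest to Bex4 were Catsperz, Cst3, Tmem139, Apoc1 and Wasf1, at distances of 0.65 to 0.95. Cst3, which encodes the secreted protease inhibitor cystatin C, stood at 12.11, 13.78 and 11.91 in RANK-/- and at 13.91, 13.96 and 13.84 in RANK+/+. Apoc1, an apolipoprotein gene, stood at 10.07, 14.56 and 10.51 in RANK-/- and at 12.94, 12.11 and 13.43 in RANK+/+. In both, the RANK-/- RNAs of pairs 1 and 3 were the lowest of the 6, which the choice by nearness to Bex4 favors. For Apoc1 the RANK-/- RNA of pair 2 was the highest. For Cst3 it too was below every RANK+/+ RNA. The genotypes of Cst3, Tmem139 and Wasf1 thus did not overlap, while those of Catsperz, Apoc1 and Bex4 did. The 5 genes nearest to Armcx2 were Gjb6, Alox5ap, Mir17hg, Zfp618 and Foxo6, at 0.26 to 0.30. Gjb6, which encodes the gap junction protein connexin 30, stood at 7.08, 6.31 and 6.55 in RANK-/- and at 8.11, 7.76 and 8.55 in RANK+/+. Alox5ap, the 5-lipoxygenase activating protein, stood at 8.24, 7.97 and 8.51 in RANK-/- and at 9.67, 9.65 and 9.75 in RANK+/+. The genotypes did not overlap for Gjb6, Alox5ap and Foxo6, as for 3.82% of all genes with RANK-/- lower. For Mir17hg and Zfp618 they overlapped. Nearness to Armcx2, itself without overlap, chose these genes, so nothing is read from their separation.

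**Figure D4:**
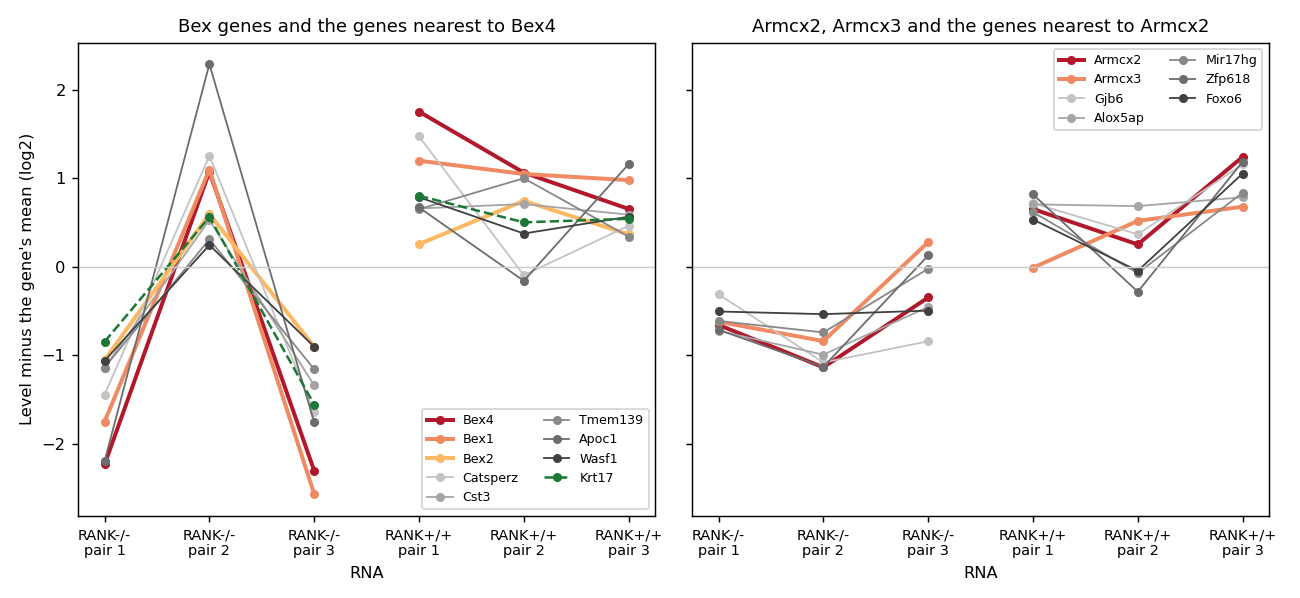
Level of each gene minus its own mean over the 6 RNAs (vertical axis, log2) in the RNAs of both genotypes (horizontal axis), with lines joining the RNAs of a genotype only as a guide. Left, Bex4, Bex1 and Bex2 in color, the 5 genes nearest to Bex4 in gray and the basal keratin Krt17 as a dashed green line. Right, Armcx2 and Armcx3 in color and the 5 genes nearest to Armcx2 in gray. In the left panel the RANK-/- RNAs of pairs 1 and 3 are low and that of pair 2 is not, and in the right panel the Armcx2 line is below 0 in all 3 RANK-/- RNAs.

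Markers of the cell types that a CD45- fraction can hold were read beside the members. All 7 basal myoepithelial markers were tested, 0 passed, and 5 had a mean log2 ratio below 0, beside 11021 of 22502 genes overall. The medians of these markers were 0.00, -0.02 and -0.13 in pairs 1, 2 and 3. Their mean level was 11.16 to 11.30 in RANK-/- and 11.68 to 11.71 in RANK+/+. Krt17, a keratin of basal cells, had log2 ratios of -1.66, 0.05 and -2.10, and its levels of 11.73, 13.14 and 11.02 in RANK-/- and of 13.38, 13.08 and 13.12 in RANK+/+ had the pattern of the Bex members. Krt14, another basal keratin, had it only in part. Its levels were 11.92, 12.72 and 11.58 in RANK-/- and 13.73, 12.60 and 12.03 in RANK+/+. Its log2 ratios of -1.81, 0.12 and -0.44 were highest in pair 2, as for the Bex members, but the last was small. Its RANK+/+ levels spread widely (SD 0.87, against 0.16 for Krt17), and the lowest, 12.03, was close to the RANK-/- level of 11.92. Krt5 read -1.41, -2.13 and 0.33, and Acta2 read 0.89, 0.02 and -0.01. Myh11 read 0.00, -0.83 and -0.13, and Cnn1 read 0.07, -0.10 and -0.92. None of these had the pattern of the Bex members, and neither did the medians of the list. The probes of Trp63, a transcription factor that defines basal cells, disagreed, with the brighter reading 0.28, -0.02 and 0.17 and the other, above background on all 6 arrays in both genotypes, reading -1.45, -1.07 and -0.50. The part of basal cells in the Bex values was not tested.

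Luminal markers (6 of 6 tested, 0 passed) had median log2 ratios of 0.08, -0.69 and 1.09 in the 3 pairs, with mean levels of 13.40 to 15.18 in RANK-/- and 14.03 to 14.67 in RANK+/+. Fibroblast markers (7 of 7 tested, 0 passed) had medians of 0.16, 0.85 and 2.01, with 3 higher in all pairs, as were 2235 of 22502 genes. The mean levels of the fibroblast markers were 13.29 to 13.97 in RANK-/- and 11.97 to 13.42 in RANK+/+. Their highest median was in pair 3, and their part in the values of the members was not tested. The luminal median was lowest in pair 2 and the fibroblast median in pair 1. Among Schwann cell markers, read because Bex and Sox10 are known from neural cells, 3 of 5 were tested, and S100b read 3.78, 0.74 and 0.06. Endothelial markers (6 of 6 tested) had medians of 0.01, -0.18 and 0.47, and pericyte markers (5 of 5) had 1.06, -0.72 and 0.68. Of the leukocyte markers 6 of 7 were tested, with medians of -0.46, 0.15 and 0.09, and of the adipocyte markers only Fabp4 of 4 was tested. No gene of these lists passed the limma threshold.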

How the data were processed

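RNA of CD45- tumor cells was hybridized by the authors to SurePrint G3 Mouse two-color arrays, 6 arrays in 3 pairs of RNAs with technical arrays A and B. The authors extracted spots with Feature Extraction 10.7.3.1, and the deposited scanner tables hold unnormalized median signal and local background intensity per channel. They also hold processed intensities and a log10 ratio, per the file headers. The deposited series table holds log2 ratios normalized by the authors, in a direction not stated. Set against the scanner values (r = 0.948 to 0.961 per array) they ran as RANK-/- over RANK+/+, with array medians of -0.00763 to 0.00732. Processed intensities and the authors' ratios served as alternatives only.

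Genotype and dye came from the sample labels. The labels give arrays A and B of a pair the same dyes, although the methods describe dye swaps. The design calls the RNAs biological replicates without naming their tumors, so p-values measure the spread between these RNAs, which may be in part technical. Median signals were corrected with normexp (offset 50), normalized by intensity loess and Aquantile in limma 3.58.1 (R 4.3.3, and data.table, version 1.17.8), turned to log2 RANK-/- over RANK+/+, and averaged over A and B. Control spots (3671 per array) and outlier spots (212 to 260) were removed, and 0 spots were saturated. A probe was kept if, in one genotype, both A and B were well above background in 2 or more pairs (30231 of 55681, 54.3%), and the brightest kept probe stood for a gene. Accessions were matched to symbols in RefSeq (GRCm38.p6, 28026 probes matched). The array grid names mm9, so no coordinates are given for genes or probes, and those printed with promoter windows are of GRCm38.p6. Testing used limma (lmFit and eBayes, two-sided) on the 3 pair ratios at an adjusted p of 0.05. The fit was checked on simulated data with a much smaller spread between pairs than these data had. That check therefore does not cover the real spread. The array number limits precision, and an exact sign-flip test of 3 pairs cannot go below p = 0.25. The rank product test of the methods was not run. Promoter windows were aligned with Biopython 1.88.

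The members and the gene lists were chosen with earlier results of these data known. Named genes were the members, Tnfrsf11a, relatives and partners of one sign in all pairs, and the 5 genes nearest in pattern to Armcx2 and to Bex4. Further relatives, neighbors and markers were named after their values were seen.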

Additional observations from a re-analysis of the deposited data

How the results depend on the processing

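Of the 19 alternatives run, all 19 kept the median of the members below 0 (-1.05 to -0.79; -1.01 to -0.86 when 1 pair was left out) and the means of Bex1, Bex2, Bex4, Armcx1, Armcx2, Armcx3 and Armcx6 below 0. Bex1 and Bex4 varied most, from -3.25 to -1.45 and from -3.48 to -1.48, both ends coming from fits without 1 pair. Armcx4 ran from -0.72 to 0.28 when 1 pair was left out, above 0 without pair 1 (0.13) and without pair 3, and the strict filter on dim probes dropped it. The limma count of 0 genes became 13 with pair as a random block (consensus correlation 0.962) and 298 with 6 arrays as 6 replicates, which counts technical arrays as independent; it stayed 0 without any 1 pair, and relatives and partners stayed at 0 in all 19. The median of the X-linked neighbors and relatives together was -0.24. It was -0.36 with median centering and -0.02 with no filter on dim probes, and it was -0.18 to -0.09 when 1 pair was left out. The distance between Bex1 and Bex4, 0.35, was 0.21 to 0.42 when 1 pair was left out. The causes were not tested. The 3 pairs and 1 slide limit every value, and probes near background, such as those of Armcx4, give ratios drawn toward 0. Bex4, dim in the RANK-/- channels of pairs 1 and 3, had a mean of -2.31. It was -2.76 with an offset of 0 and -2.89 with the processed signals.

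No replicate block, with the channels taken as unpaired RNAs, gave 0 genes (830 at an unadjusted p under 0.05) and the same members' median of -0.85; deviations of same-numbered RNAs correlated at -0.0335, -0.218 and -0.0412. A block for slide or scan was not run, since all 6 arrays shared 1 slide and 1 scan date.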
